A study of Mus musculus with 2 samples.

Results

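In the short-term haematopoietic stem cell (ST-HSC) library, 263 of 6648 kept cells (3.96%, 95% exact Clopper-Pearson interval 3.50 to 4.45%) carried RNA of both Plbd1, a lysosomal phospholipase B-like protein, and Naaa, the lysosomal acid amidase that cleaves N-acylethanolamines. A cell was kept with at least 1000 genes and under 10% mitochondrial unique molecular identifiers (UMIs, each standing for 1 captured RNA molecule). Members were chosen by their UMI counts in this library: they had at least 1 UMI of each gene, at least 4 UMIs of both together, and under 20 UMIs per 10000 from the granule genes Mpo, Elane and Ctsg. They are called the Plbd1/Naaa cells here and are set against the 6385 other cells of the same library; both libraries of the study together hold 9370 kept cells. The ST-HSC library was made from WT bone marrow of the strain C57Bl6, and the series title puts the mice at 8 weeks. It was sorted as lineage-negative Sca-1+ Kit+ (LSK) cells that were CD34-, CD150+ and CD48+. The second library, from long-term stem cells (LT-HSC), came from the same strain, genotype, tissue and age and was sorted as LSK CD34- CD150+ CD48- Flk2-. Each gate is 1 library made with a 10x 3' kit labelled v2, and the number of mice in it is not given. There is therefore no replicate of any kind: values are summed counts scaled to CPM (counts of a gene per 1000000 UMIs), intervals cover counting error only, no p-value was computed, and cells of the library are not replicates.

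Conventional dendritic cells carry peptides on MHC class II to CD4 T cells. Their type 1 branch (cDC1) is known for taking up dead cells through the receptor Clec9a, for the chemokine receptor Xcr1, and for presenting engulfed antigen on MHC class I to CD8 T cells. In mouse bone marrow that branch is built from progenitors by the transcription factors Irf8 and Batf3, with Id2 and Zfp366 expressed in the committed cells, and MHC class II genes are switched on by Ciita together with a promoter complex of Rfx, Nf-Y and Creb proteins.

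The promoters of 5 genes that the results below return to are printed here. Of the factors named above, Irf8, Nf-Y and Creb proteins are known to bind motifs of the kinds searched for. No Rfx motif was searched for. Each runs from 250 bases before to 50 bases after the start of the RefSeq gene (GRCm38.p6), 5′ to 3′ on the gene's own strand. Capitals mark the Ets-Irf composite element, TTCNNNGAA (bound by Stat proteins), CTGATTGG (a CCAAT box read backwards) and TGACGTCA (a cyclic AMP response element), searched on both strands.
Irf8 (chr8:120736108-120736407, + strand): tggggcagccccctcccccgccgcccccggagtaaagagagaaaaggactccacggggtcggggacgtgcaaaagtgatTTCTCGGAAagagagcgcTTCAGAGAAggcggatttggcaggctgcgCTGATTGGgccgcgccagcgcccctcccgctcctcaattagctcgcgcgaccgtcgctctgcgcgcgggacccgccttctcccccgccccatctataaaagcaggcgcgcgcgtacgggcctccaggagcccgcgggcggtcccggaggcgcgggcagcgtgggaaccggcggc
Gpr33 (chr12:52028014-52028313, - strand): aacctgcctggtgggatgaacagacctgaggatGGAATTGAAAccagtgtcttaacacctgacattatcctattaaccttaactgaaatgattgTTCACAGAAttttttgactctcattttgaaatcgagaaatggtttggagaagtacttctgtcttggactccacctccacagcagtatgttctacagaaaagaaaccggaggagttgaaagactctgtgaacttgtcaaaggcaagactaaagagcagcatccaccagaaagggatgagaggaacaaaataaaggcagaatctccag
Cd8a (chr6:71373177-71373476, + strand): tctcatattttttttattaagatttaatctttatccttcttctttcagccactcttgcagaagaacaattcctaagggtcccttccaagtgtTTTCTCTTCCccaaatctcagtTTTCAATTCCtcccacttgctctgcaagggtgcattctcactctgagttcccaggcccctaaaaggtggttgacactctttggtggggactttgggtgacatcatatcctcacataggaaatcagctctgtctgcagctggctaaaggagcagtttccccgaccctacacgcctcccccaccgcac
H2-Aa (chr17:34287774-34288073, - strand): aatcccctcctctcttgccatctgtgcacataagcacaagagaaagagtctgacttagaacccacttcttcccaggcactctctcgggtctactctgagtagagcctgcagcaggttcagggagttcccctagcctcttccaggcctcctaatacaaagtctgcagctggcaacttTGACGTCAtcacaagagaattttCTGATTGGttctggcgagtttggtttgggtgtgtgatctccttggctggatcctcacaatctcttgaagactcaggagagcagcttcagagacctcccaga
Psmb9 (chr17:34187281-34187580, - strand): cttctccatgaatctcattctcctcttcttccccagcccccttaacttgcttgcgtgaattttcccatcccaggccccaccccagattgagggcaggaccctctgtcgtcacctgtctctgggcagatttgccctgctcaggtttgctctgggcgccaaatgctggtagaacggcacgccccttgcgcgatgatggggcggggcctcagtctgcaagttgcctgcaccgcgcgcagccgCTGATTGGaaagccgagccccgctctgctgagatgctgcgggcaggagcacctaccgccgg
The Irf8 window held TTCNNNGAA at positions 80 and 98, counted from its first base, and CTGATTGG at 127. The Gpr33 window held the Ets-Irf composite element at 34 and TTCNNNGAA at 95, and the Cd8a window held it on the reverse strand at 93 and 115. The H2-Aa window held TGACGTCA at 177 and CTGATTGG at 200, and the Psmb9 window held CTGATTGG at 240. Psmb9 and Tap1 lie head to head, so that the Tap1 window covers the same box. Of 32851 RefSeq windows, 2.72% held the Ets-Irf composite element, 8.3% TTCNNNGAA, 4.1% CTGATTGG and 1.79% TGACGTCA. The direct repeat bound by Irf proteins was in 3.44% of all windows and in none of the 5 printed ones. Among the 894 windows of genes at a ratio of at least 2 in the Plbd1/Naaa cells, 4.47% held the composite element and 5.59% the Irf repeat, against 2.48% and 3.33% of the 10602 windows of all genes compared. TTCNNNGAA was in 6.26% of them against 6.69%, CTGATTGG in 5.48% against 5.6%, and TGACGTCA in 1.57% against 3.07%. In the MHC class II list, 4 of 11 windows (36.4%) held CTGATTGG. These shares are descriptions of letters in the windows and not of binding.

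The Plbd1/Naaa cells fell into 207 cells with little stem-cell RNA and 56 cells with much of it, and the results are given with and without the 56. The sum of Angpt1, Hlf and Mecom, genes that mark most cells of this library, was 0 UMIs in 163 of the 263 cells (62.0%), 1 or 2 UMIs in 42 and 3 to 5 UMIs in 2. No cell had 6 to 10 UMIs, a count of 0 that allows a share of up to 1.14% (3 counts of 263), and 56 cells (21.3%, 16.5 to 26.7%) had more than 10. Of the other cells, 83.6% had more than 10 such UMIs and 5.39% had 6 to 10. The Plbd1/Naaa cells had a median of 14194 UMIs (3193 to 77612), 3836 genes and 2.46% mitochondrial UMIs, against 13330 UMIs, 4276 genes and 3.50% in the other cells. The 207 had a median of 12583 UMIs and the 56 a median of 28881.5. Of the 263 cell barcodes, 0 also occurred in the LT-HSC library, which shares 8 barcodes with this one.

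**Figure D1:**
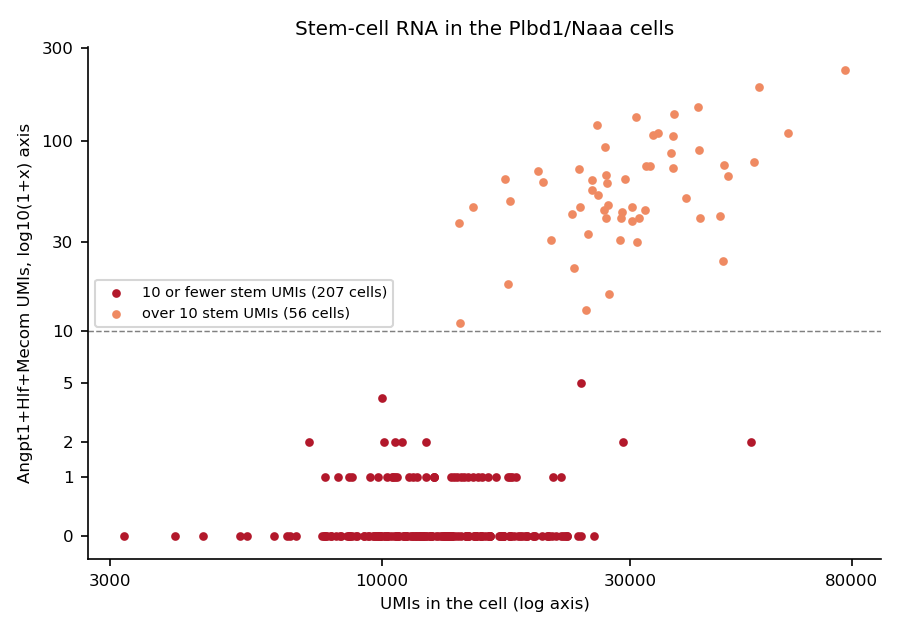
Each point is 1 Plbd1/Naaa cell, with its total UMIs on a log axis and its Angpt1, Hlf and Mecom UMIs on a log10(1+x) axis. The 207 cells with little stem-cell RNA lie at 5 UMIs or fewer, the 56 others lie above 10, and no cell lies between 6 and 10.

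The 5 genes of the rule chose the cells and are given as a description. Plbd1 and Naaa together had a median of 27 UMIs per member (4 to 68), with medians of 15 for Plbd1 and 12 for Naaa; the other cells had a median of 0 and a highest value of 36. The granule sum was at most 15.72 per 10000, and 187 of the 263 cells had none. Just inside the threshold, 6 cells had exactly 4 UMIs, and 1 of them carried several Irf8 and Xcr1 UMIs (5 and 4) beside 59 of Cst3. Just outside it, 3 cells had 3 UMIs of the pair with 25, 23 and 12 UMIs of Cst3 and 204, 220 and 125 of Cd74. A further 14 cells with 2 UMIs of the pair had 0 to 2 of Irf8 and 0 to 14 of Cst3, well under the median of 194 Cst3 UMIs in the members. Another 2 cells met all but the granule limit, at 92.3 and 38.3 per 10000, and held 30 and 31 Irf8 UMIs and 77 and 51 stem-gene UMIs.

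The label of dendritic-type cells was set beside markers that the rule did not ask for. Irf8 and Zfp366 among them are also genes of the label, so their levels do not check it. Levels of every gene in these cells depend on how the cells were picked, so the ratios below describe the cells and test nothing. Of 10355 genes with a mean of at least 5 CPM over both groups, 8.35% had a ratio of at least 2 in the Plbd1/Naaa cells over the other cells and 16.3% a ratio of at most 0.5. All 7 cDC1 markers (Irf8, Batf3, Xcr1, Clec9a, Cadm1, Wdfy4 and Zfp366) were at a ratio of at least 2, and their summed level was 4307 CPM in the Plbd1/Naaa cells, 5206 CPM in the 207 cells, and 213 CPM in the other cells. Irf8 and Zfp366 are part of these sums. By the 5 markers outside the label (Batf3, Xcr1, Clec9a, Cadm1 and Wdfy4), the cells are conventional type 1 dendritic-like. Of the 6 genes of the label, Plbd1 and Naaa chose the cells, and Lgals3, Irf8, Cst3 and Zfp366 were also at a ratio of at least 2. In the wider cDC1 list, 23 of 24 genes were at a ratio of at least 2 and 0 at 0.5 or less. The list had a median log2 ratio of 5.96, beside -0.30 for all genes compared. Plbd1 and Naaa were left out of the 24, and Irf8 and Zfp366 were kept. With the 207 cells alone, 24 of 24 genes were at a ratio of at least 2, where 9.97% of all genes were, and 24.9% of all genes were at 0.5 or less.

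Xcr1, the receptor for the chemokine Xcl1, had 0 to 21 UMIs per Plbd1/Naaa cell with a median of 4. It summed to 252 CPM in the Plbd1/Naaa cells against 0.270 CPM in the other cells, a ratio of 933 (646 to 1399), and the ratio of the 207 over the other cells was 1148. Clec9a, which binds actin exposed by dead cells, also had a median of 4 UMIs (0 to 21) and summed to 250 CPM in the Plbd1/Naaa cells and 0.615 CPM in the other cells, a ratio of 405 (316 to 528), or 515 for the 207. Both genes were seen in 210 of the 263 cells and neither in 12. At least 2 UMIs of Xcr1 and Clec9a together were present in 243 of the 263 cells, against 12 of the 6385 other cells, so that a pair of genes outside the rule marks nearly the same cells. After thinning each cell to 5000 UMIs, Xcr1 was seen in 66.7% and Clec9a in 72.1% of the 207 cells. Cells with Car1 and Klf1 RNA, an erythroid kind that should lack dendritic RNA, had a UMI of Xcr1 in 0.279% and of Clec9a in 0% of cells at the same depth; their median before thinning was 38244.5 UMIs. For abundant genes that share was larger: a Cst3 UMI was in 51.5% and a Cd74 UMI in 21.5% of those erythroid cells, against 100% of the 207 for each; how much of it was free RNA and how much the cells' own was not tested.

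**Figure D2:**
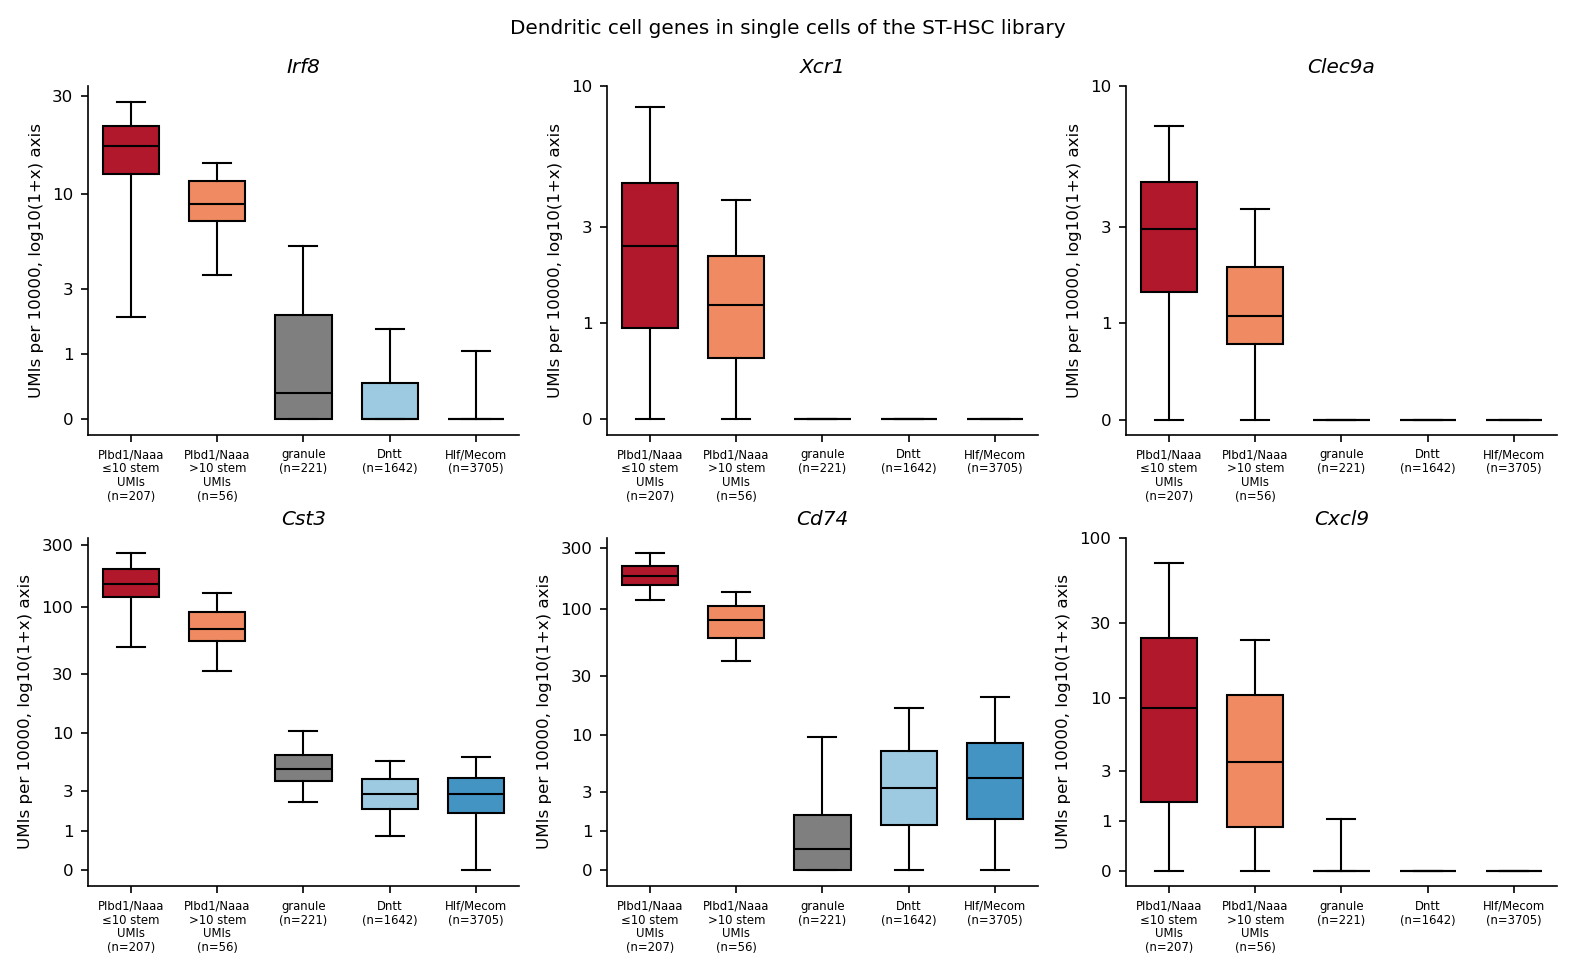
Boxes show quartiles and whiskers the 5th to 95th percentile of UMIs per 10000 in single cells, on a log10(1+x) axis. The groups are the Plbd1/Naaa cells with little and with much stem-cell RNA and the other kinds of cell of the library. Each dendritic gene is high in both sets of Plbd1/Naaa cells, and its level per 10000 UMIs is lower in the 56 cells that also hold stem-cell RNA (Xcr1 310 CPM in the 207 cells and 159 CPM in the 56).

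The named transcription factors of the cDC1 branch were high in the Plbd1/Naaa cells, and those of other dendritic branches went both ways. Irf8 (chromosome 8, 120736358 to 120756694, + strand, mm10), the factor on which cDC1 development depends, had 0 to 93 UMIs per cell with a median of 23, and 1385 CPM in the Plbd1/Naaa cells against 29.6 CPM in the other cells, a ratio of 46.9 (44.9 to 48.9). Batf3, its partner that sustains Irf8, had a median of 3 UMIs (0 to 12) and a ratio of 70.0 (61.2 to 80.2), at 190 CPM in the Plbd1/Naaa cells against 2.71 CPM in the other cells. Zfp366, also known as DC-SCRIPT, had 313 CPM in the Plbd1/Naaa cells against 0.886 CPM in the others, a ratio of 353 (287 to 440). These 3 genes were present in most members, although each had cells at 0. Over the 207 cells alone the ratio was 57.2 for Irf8 and 86.7 for Batf3. Id2, an inhibitor of E proteins that opposes the plasmacytoid fate, had 754 CPM in the Plbd1/Naaa cells against 13.6 CPM in the others. Zbtb46, a factor of conventional dendritic cells that is also made by erythroid progenitors, had 127 CPM in the Plbd1/Naaa cells and 10.4 CPM in the others, and 54.7 CPM in the Car1/Klf1 cells. Spi1 (PU.1), shared by myeloid cells, had 332 CPM in the Plbd1/Naaa cells and 129 CPM in the others, a ratio of 2.57. In the list of dendritic transcription factors, 11 of 31 genes were at a ratio of at least 2 and 4 at 0.5 or less. Tcf4, the E protein of plasmacytoid cells, was among the lower ones in the 207 cells, with 79.9 CPM against 256 CPM in the other cells; it had 132 CPM over all 263. Zeb2, a repressor tied to the plasmacytoid and type 2 branches, had 94.1 CPM in the Plbd1/Naaa cells against 282 CPM in the other cells, and Runx2 had 141 CPM against 351 CPM. Irf7, an interferon-induced factor of plasmacytoid cells, was higher, at 84.0 CPM in the Plbd1/Naaa cells against 21.1 CPM in the others.

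The 12 genes with the highest ratios, ranked by the interval bound nearest 1 and outside the rule, included several known from cDC1. Ifi205, a member of the interferon-inducible Ifi200 family whose genes resemble each other in sequence, had 278 CPM in the Plbd1/Naaa cells against 0.532 CPM in the other cells, a ratio of 523. Gpr33, an orphan receptor, had 69.3 CPM in the Plbd1/Naaa cells against 0.084 CPM in the others, a ratio of 825. Cd8a, the alpha chain of CD8, which marks the lymphoid-resident cDC1 of mice, had 58.7 CPM in the Plbd1/Naaa cells against 0.131 CPM in the other cells, a ratio of 450. Its UMIs were sparse: after thinning, 20.6% of the 207 cells had one. Mycl, a Myc paralogue expressed by dendritic cells, had 62.9 CPM in the Plbd1/Naaa cells against 0.233 CPM in the others, and Ppef2, a phosphatase, had 29.0 CPM against 0.0466 CPM. Sensors of nucleic acids and microbes that cDC1 are known for followed the same direction. Tlr3, the sensor of double-stranded RNA, had 91.2 CPM in the Plbd1/Naaa cells against 0.793 CPM in the other cells, and Tlr11, which recognises profilin of Toxoplasma in mice, had 35.0 CPM against 0.103 CPM. Unc93b1, which carries these receptors to endosomes, had a ratio of 5.75. In the list of pattern and cytokine receptors, 15 of 24 genes were at a ratio of at least 2 and 3 at 0.5 or less.

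Among genes for antigen presentation, those of class II stood far above the other cells and those of class I much less so. In the class II list, 10 of 13 genes were at a ratio of at least 2 and 0 at 0.5 or less, with a median log2 ratio of 3.16. Cd74, the invariant chain that guards the class II groove, had 9 to 554 UMIs per cell with a median of 244; it summed to 13981 CPM in the Plbd1/Naaa cells against 534 CPM in the others, a ratio of 26.2. H2-Aa, a class II alpha chain, had 5318 CPM in the Plbd1/Naaa cells against 283 CPM in the other cells, a ratio of 18.8, and H2-Ab1, its beta chain, had 5675 CPM against 280 CPM, a ratio of 20.3. Ciita, the master regulator of class II genes, had 419 CPM in the Plbd1/Naaa cells against 16.1 CPM in the others, and its ratio for the 207 was 32.5. The peptide-editing H2-DMa had a ratio of 3.16 and H2-DMb2 one of 9.56. The 3 subunits of the Rfx complex did not follow Ciita: the ratio was 0.72 for Rfx5, 1.18 for Rfxap and 0.73 for Rfxank. In the class I list, 5 of 15 genes were at a ratio of at least 2. They were the inducible proteasome subunits Psmb8 (2.83) and Psmb9 (2.70), the peptide pump subunit Tap1 (2.73), the loading chaperone Tapbp (2.60) and the disulfide isomerase Pdia3 (2.61). Of the class I chains, B2m had a ratio of 1.01, H2-K1 of 0.93 and H2-D1 of 1.59, and the sequences of the last pair are close to those of other class I genes. With the 207 cells alone, the class II list again had 10 of 13 genes at a ratio of at least 2, and the ratio of Cd74 was 33.6.

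The lysosome list was mixed, with 18 of 28 genes at a ratio of at least 2 and 5 at 0.5 or less, Plbd1 and Naaa left out; for the 207 cells the counts were 20 and 5. Cst3, the cysteine protease inhibitor cystatin C, was the most abundant of the label genes, with 1 to 531 UMIs per cell, a median of 194, and 11893 CPM in the Plbd1/Naaa cells against 304 CPM in the others. Ifi30 (GILT), a thiol reductase for class II loading, had 669 CPM in the Plbd1/Naaa cells against 21.2 CPM in the other cells, a ratio of 31.5. Ppt1, a palmitoyl thioesterase, had a ratio of 18.2, Psap, the precursor of saposins, 15.3, Ctsh 14.4, and Ctss, the protease that trims Cd74, 9.03. Lower members were Cd63, a tetraspanin of late endosomes, at a ratio of 0.24, and Ctsd, an aspartic protease, at 0.31. Lgals3, galectin 3, had 599 CPM in the Plbd1/Naaa cells against 3.82 CPM in the others, a ratio of 157.

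Receptors that place dendritic cells in tissue and let them speak to T cells were present in the Plbd1/Naaa cells. Ccr2, the receptor for Ccl2, had 355 CPM in the Plbd1/Naaa cells against 4.67 CPM in the others, a ratio of 75.9. Cd83, a stabiliser of surface class II, had 250 CPM in the Plbd1/Naaa cells against 4.30 CPM in the other cells, and Cd40, the receptor for CD40 ligand, had 73.0 CPM against 0.933 CPM. Itgax, which encodes CD11c, had 31.9 CPM in the Plbd1/Naaa cells against 1.02 CPM in the others. Btla, an inhibitory receptor of lymphocytes and dendritic cells, had a ratio of 29.1, Cd80 one of 19.7 and Cd86 one of 5.16. Ccr7, which takes mature dendritic cells to lymph nodes, had 2.64 CPM in the Plbd1/Naaa cells against 1.85 CPM in the other cells, and Fscn1, the actin bundler of mature dendritic cells, had 1.98 CPM against 4.35 CPM. Flt3, the receptor whose ligand drives dendritic cell growth, did not separate the groups: 303 CPM in the Plbd1/Naaa cells and 291 CPM in the others, a ratio of 1.04 (0.985 to 1.10). Il12b, the shared chain of interleukin 12 and 23, had 34 UMIs in the Plbd1/Naaa cells against 1 UMI in the other cells, and 41.2% of the Il12b UMIs of the 207 came from 1 cell.

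**Figure D3:**
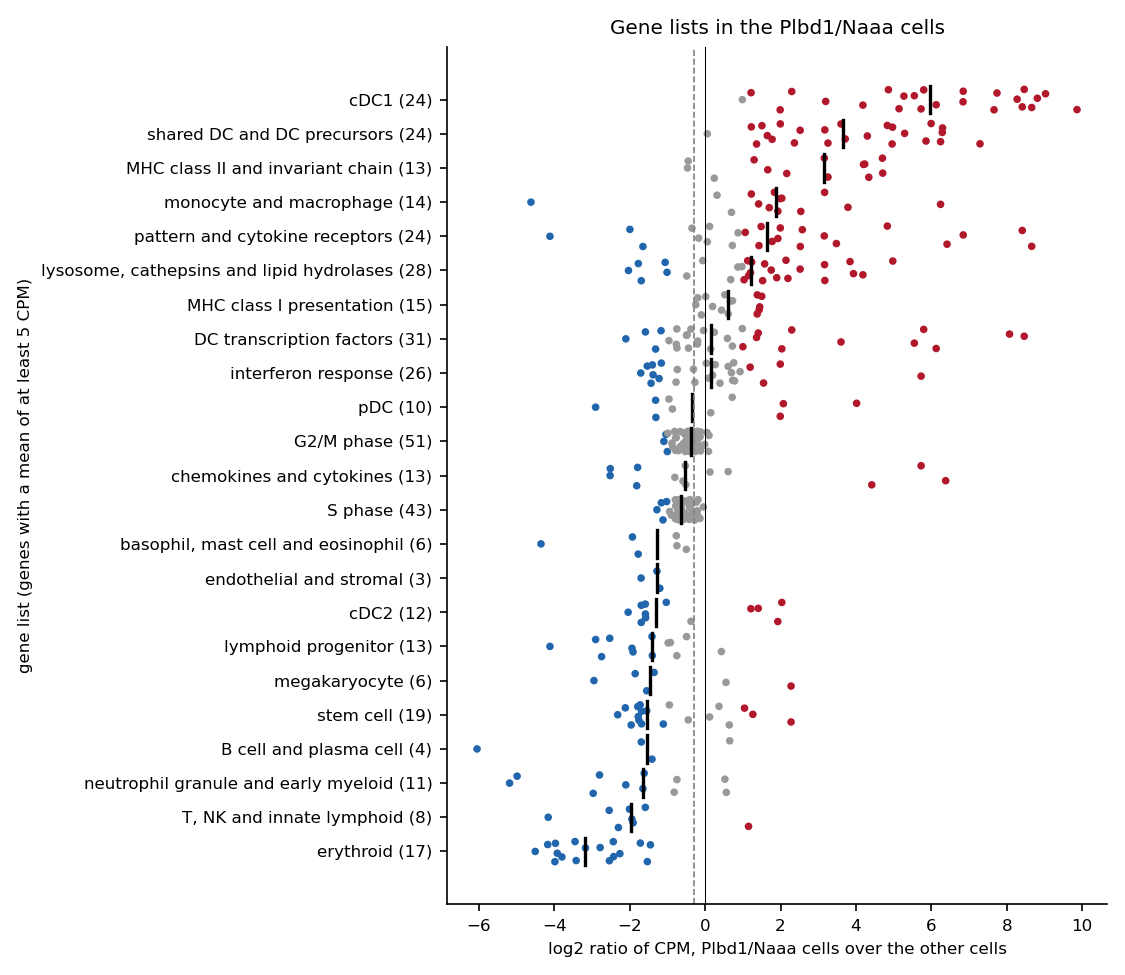
Each dot is 1 gene of the named list with a mean of at least 5 CPM, at its log2 ratio of CPM in the Plbd1/Naaa cells over the other cells. The cDC1 list (median 5.96), shared dendritic list (3.66) and class II list (3.16) lie to the right; the erythroid list lies to the left (-3.17).

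Markers of other cell types were counted in the same cells. Of the 5 markers of type 2 dendritic cells, 2 were at a ratio of at least 2 and 3 at 0.5 or less, with a summed 21.6 CPM in the Plbd1/Naaa cells (20.1 CPM in the 207) against 38.8 CPM in the others. Clec10a was at 0 in the 207, Itgam, which encodes CD11b, had 5.28 CPM in the Plbd1/Naaa cells against 17.1 CPM in the others, and Sirpa had 7.70 CPM against 15.7 CPM. The 2 markers at a ratio of at least 2 in the 207 were Irf4 and Cd209a. Their means were under 5 CPM, so the wider list below leaves them out. The 6 plasmacytoid markers summed to 339 CPM in the Plbd1/Naaa cells and 394 CPM in the others, with 3 at a ratio of at least 2 and 1 at 0.5 or less. Ly6d was at 0, Siglech had 1.10 CPM against 0.420 CPM, and Ccr9, a homing receptor, was higher at 58.9 CPM in the Plbd1/Naaa cells against 3.64 CPM in the others. The 5 monocyte markers summed to 596 CPM in the Plbd1/Naaa cells and 109 CPM in the others. Ccr2 made up most of that, while F13a1, a transglutaminase subunit of monocytes, had 0.660 CPM against 16.2 CPM. The 5 macrophage markers summed to 51.2 CPM in the Plbd1/Naaa cells and 12.9 CPM in the others, with 97.8% of the C1qb UMIs of the 207 in 1 cell. The 4 B cell markers were near 0 in both groups, at a summed 0.88 CPM in the Plbd1/Naaa cells and 0.73 CPM in the others. Of them, 1 was at a ratio of at least 2 and 3 at 0.5 or less. The 5 T and NK markers summed to 27.5 CPM in the Plbd1/Naaa cells and 145 CPM in the others, with 5 at 0.5 or less. The B cell marker Pax5 and the T and NK markers Cd3e and Klrb1c were at 0 in the Plbd1/Naaa cells. In the wider lists, 4 of 12 type 2 genes (Klf4, Tbx21, Relb and Notch2) were at a ratio of at least 2 and 7 at 0.5 or less. Of the plasmacytoid genes, 3 of 10 were at 2 or more and 3 at 0.5 or less. The list shared by dendritic cells and their precursors had 23 of 24 genes at 2 or more, and the monocyte and macrophage list had 11 of 14 at 2 or more, Ccr2, Irf5, Cd68 and the 3 C1q genes among them, and 1 at 0.5 or less. The list of T, NK and innate lymphoid genes had 1 of 8 at 2 or more and 7 at 0.5 or less.

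Erythroid genes and most lymphoid progenitor genes were lower in the Plbd1/Naaa cells. In the lymphoid progenitor list, 0 of 13 genes were at a ratio of at least 2 and 8 at 0.5 or less, and in the 207 cells 11 were at 0.5 or less. Il7r, the interleukin 7 receptor, and Rag1 were at 0; Il7r had 11.5 CPM in the other cells, at least 17.4-fold lower in the Plbd1/Naaa cells when 0 is read as 3 counts. Dntt, which adds untemplated bases in early lymphoid cells, had 24.2 CPM in the Plbd1/Naaa cells against 181 CPM in the others, and 80.6% of the Dntt UMIs of the 207 were in 1 cell. Igkc, an immunoglobulin light chain of the B lineage, had 4.40 CPM in the Plbd1/Naaa cells against 136 CPM in the others, and Jchain 0.220 CPM against 14.6 CPM. In the erythroid list, 17 of 17 genes were at 0.5 or less; Car1, a carbonic anhydrase, had 60.0 CPM in the Plbd1/Naaa cells against 414 CPM in the others, with 83.5% of the Car1 UMIs of the 207 in 1 cell. Ms4a3, a gene of granulocyte-monocyte progenitors, had 1.54 CPM in the Plbd1/Naaa cells (0 in the 207) against 56.2 CPM in the others. Prss34, a basophil protease, was at 0 in the Plbd1/Naaa cells against 13.5 CPM in the others, and 3 of 6 genes of the basophil, mast cell and eosinophil list were at 0.5 or less. S-phase and G2/M genes were mostly level: 4 of 43 and 3 of 51 were at 0.5 or less and none at 2 or more. In the 207 alone, 19 of 43 S-phase genes and 11 of 50 G2/M genes were at 0.5 or less.

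The 56 Plbd1/Naaa cells with stem-cell RNA carried as many dendritic UMIs per cell as the 207, on top of the stem-cell RNA. The median per cell was 193 UMIs of Cst3 in the 56 and 194 in the 207. For Cd74 it was 238.5 UMIs in the 56 and 247 in the 207, for H2-Aa 89.5 and 87, for Irf8 27 and 22, and for Xcr1 4 and 3. The stem-cell genes that made the split are given as a description beside the 3705 cells of the library with Hlf and Mecom RNA, cells that Hlf and Mecom chose as well. Angpt1, a ligand of Tek, had a median of 27 UMIs in the 56 cells and 21 in the Hlf/Mecom cells, Mecom had 17 and 12, and Hlf 9 and 7, at a median depth of 28881.5 UMIs in the 56 and 11631 UMIs in the Hlf/Mecom cells. Cd34, which chose neither set, had a median of 4 UMIs in the 56 and 3 in the Hlf/Mecom cells. The median total of the 56, 28881.5 UMIs, stands beside 24214 UMIs for the sum of the medians of the 207 and the Hlf/Mecom cells. Over the 207, 15.7% of genes had a ratio of at least 2 in the 56 and 3.44% one of at most 0.5. Of the cDC1 list, 0 of 24 were at 2 or more and 10 at 0.5 or less, with a median log2 ratio of -0.99. Irf8 had a ratio of 0.53, Cst3 of 0.46, Cd74 of 0.43 and Cxcl9 of 0.38. Genes with a high ratio also included those of granules and lymphoid progenitors, beside the 3 genes that made the split: Prtn3, a neutrophil protease, had 195 CPM in the 56 against 12.5 CPM in the 207, and Cd34 had 158 CPM against 5.01 CPM. A doublet score (Scrublet) above the quantile set by the expected doublet rate of 6.07% was found in 41 of the 56 cells (73.2%), in 2 of the 207 (0.966%), and in 5.62% of the other cells. The caller's automatic threshold marked 0 cells. Whether the 56 are droplets with more than 1 cell was not tested.

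RNA of the genes behind the sort gate was read in the 207 cells, which had little stem-cell RNA. Kit, the receptor of stem cell factor, had 216 CPM in the 207 against 207 CPM in the other cells, a ratio of 1.04 (0.960 to 1.13). Ly6a, which encodes Sca-1, had 381 CPM in the 207 against 231 CPM in the others, a ratio of 1.65, and 146 of the 207 cells had UMIs of both Kit and Ly6a. Cd48, the gate's positive marker, had 197 CPM in the 207 against 70.7 CPM in the others, a ratio of 2.79. RNA of Kit, Ly6a and Cd48 was thus seen in these cells. Slamf1, which encodes CD150, was at 0 in the 207, where 3 counts would allow 1.07 CPM, against 1.31 CPM in the other cells. Cd34 was 49.7-fold lower in the 207, at 5.01 CPM against 249 CPM in the others. The gate asks for CD34- cells, and Cd34 RNA was seen in 68.1% of the other cells at 5000 UMIs per cell, against 0.49% of the 207. Procr, the stem-cell receptor EPCR, had 31.9 CPM in the 207 and 24.0 CPM in the others. In the stem-cell list without the 3 genes of the split, 3 of 16 genes were at a ratio of at least 2 in the 207 over the other cells and 9 at 0.5 or less.

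**Figure D4:**
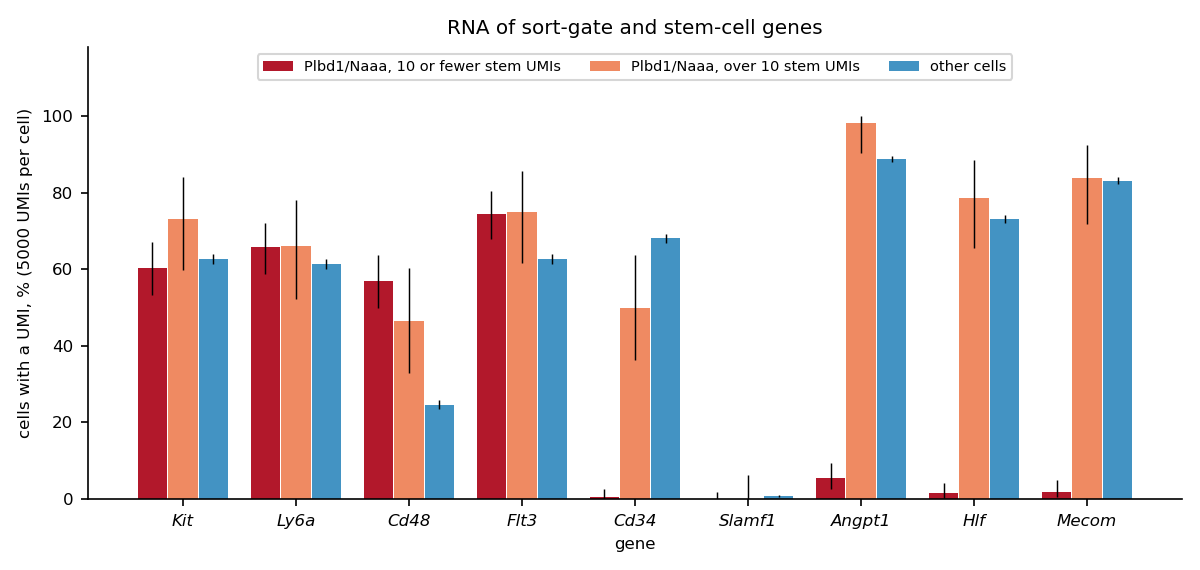
Bars give the percentage of cells with a UMI after thinning each cell to 5000 UMIs, with exact 95% intervals. The groups are the 207 Plbd1/Naaa cells with little stem-cell RNA, the 56 with much of it, and the other cells. Kit, Ly6a and Flt3 are seen in similar shares of the 207 and the other cells (60.3% and 62.7% for Kit). Cd34 is rare in the 207 alone. Angpt1, Hlf and Mecom made the split, so they are rare in the 207 by construction.

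The Plbd1/Naaa cells were also set against 3 other kinds of cell of the library, and the cDC1 genes were higher in them than in each kind. Over the 221 cells at or above the granule limit, 13.9% of genes were at a ratio of at least 2 and 9.94% at 0.5 or less; the cDC1 list had 23 of 24 genes at 2 or more. Irf8, which granulocyte-monocyte progenitors also express, was 10.1-fold higher in the Plbd1/Naaa cells (1385 CPM against 137 CPM), and Zfp366 157-fold, Id2 126-fold and Cd83 181-fold. The granule sum chose both groups, in opposite directions, so genes lower in the Plbd1/Naaa cells are given here as a description. S100a8 and Hp, neutrophil genes, and F13a1 were lower in the Plbd1/Naaa cells than in the granule cells. Prss34 was at 0, at least 333-fold lower. Over the 1642 cells with Dntt RNA, 8.47% of genes were at a ratio of at least 2 and 16.3% at 0.5 or less, with 23 of 24 cDC1 genes at 2 or more. Xcr1 was 1629-fold higher and Irf8 43.1-fold higher in the Plbd1/Naaa cells than in the Dntt cells. Flt3 went the other way, at 303 CPM in the Plbd1/Naaa cells against 528 CPM in the Dntt cells, a ratio of 0.57. Over the 3705 Hlf/Mecom cells, 8.32% of genes were at a ratio of at least 2 and 17.8% at 0.5 or less, with 23 of 23 cDC1 genes at 2 or more. Irf8 was 90.0-fold higher in the Plbd1/Naaa cells than in the Hlf/Mecom cells, and Ifi205 1220-fold.

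The members were not uniform in Irf8. Of the 207 cells, 10 (4.83%) had 0 or 1 Irf8 UMI, 7 of them 0. The 10 had a median depth of 8614.5 UMIs, against 13056 UMIs in the other 197. This split was chosen after the values were seen. Most of the 10 lie near the threshold of the rule: 5 had exactly 4 UMIs of Plbd1 and Naaa together and 2 had 7, against a median of 27 over all members. Cd74 had 19946 CPM in the 10 cells and 17871 CPM in the other 197, H2-Ab1 had 7375 and 7246 CPM, and Batf3 had 222 and 236 CPM. Other cDC1 genes were lower in the 10 cells: Xcr1 had 36.9 CPM against 319 CPM in the 197, Clec9a 49.2 CPM against 325 CPM, Cst3 4162 CPM against 15377 CPM and Id2 271 CPM against 998 CPM. Several genes of type 2 dendritic cells, named after their values were seen, were higher in the 10. Sirpa, the inhibitory receptor for CD47, had 172 CPM in the 10 against 2.21 CPM in the 197, and was seen in 4 of the 10 cells. Irf4, the factor of the type 2 branch, had 86.2 CPM in the 10 against 1.48 CPM in the 197 and was seen in 5 cells, and Cd209a had 111 CPM against 2.21 CPM in 4 cells. Tmem176a, a membrane protein gene on the type 2 list, had 505 CPM in the 10 against 7.75 CPM in the 197, and Zeb2 had 628 CPM against 32.5 CPM. Cybb, the catalytic subunit of the phagocyte oxidase and a gene on the plasmacytoid list, had 677 CPM in the 10 against 10.3 CPM in the 197. It was seen in 9 of the 10 and in 14 of the 197. Of all genes compared, 23.1% were at a ratio of at least 2 in so few cells, where a lone UMI in the 10 is enough for a gene to be compared. The C1qa and C1qb UMIs of the 10 were all from 1 cell.

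About 1 member in 5 was in cycle by its RNA. At 5000 UMIs per cell, 56 of 260 Plbd1/Naaa cells (21.5%, 16.7 to 27.04%) had at least 1% of their UMIs in S and G2/M genes, against 34.0% (32.8 to 35.2%) of the other cells. The share was 19.6% in the 207 (40 of 204) and 28.6% in the 56 with stem-cell RNA (16 of 56). It was 55.2% in the granule cells, 40.0% in the Dntt cells and 26.7% in the Hlf/Mecom cells. Within the 207, cycling over not cycling cells, 9.03% of genes were at a ratio of at least 2 and 5.12% at 0.5 or less. Most cDC1 genes lay between these limits: 0 of 24 cDC1 genes were at 2 or more and 2, Cadm1 and Cxcl9, at 0.5 or less. The list leaned lower in cycling cells, with a median log2 ratio of -0.32 beside 0.03 for all genes compared. Irf8 had 1694 CPM in cycling cells and 1687 CPM in the cells not cycling, Xcr1 286 and 321 CPM, and Clec9a 296 and 323 CPM. Flt3 had 206 CPM in cycling cells against 336 CPM in the others, a ratio of 0.61, Zfp366 a ratio of 0.57, Cd40 of 0.30 and Cxcl9 of 0.41. Top2a and Mki67, genes used to call the cycle, had 823 CPM and 530 CPM in the cycling cells against 25.2 CPM and 44.0 CPM.

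Cxcl9, the chemokine that draws Cxcr3-bearing T cells, was abundant and uneven among the members. It had 0 to 163 UMIs per Plbd1/Naaa cell with a median of 11 and quartiles of 2 and 29, and summed to 1223 CPM in the Plbd1/Naaa cells against 23.1 CPM in the other cells, a ratio of 53.0 (50.6 to 55.6), or 69.8 for the 207. The 207 had 1609 CPM and the 56 had 610 CPM. In the chemokine and cytokine list, 3 of 13 genes were at a ratio of at least 2 and 4 at 0.5 or less; Cxcl16, a ligand of Cxcr6, had 49.7 CPM in the Plbd1/Naaa cells against 0.597 CPM in the others. Across the 207 cells, the genes whose UMIs per 10000 followed Cxcl9 most closely were Serpina3g, a serpin (Spearman rho 0.70), and Iigp1, an interferon-inducible GTPase (0.58), then Gbp2 (0.54), Cd40 (0.50) and Zyx (0.50). Xcr1 had a rho of 0.056, Irf8 of -0.078 and Ciita of -0.068, and the total UMIs of the cell one of -0.066. Of 14 interferon response genes with a mean of at least 0.5 UMIs per 10000, 8 had a rho of at least 0.3, beside 51 of 3374 genes (1.51%) overall. These cells share 1 library, and the rhos describe it.

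The order of levels shows the same genes. In the 69 cells with the least Cxcl9, the middle 69 and the 69 with the most, Cxcl9 itself had 91.3, 885 and 4187 CPM by construction. Iigp1 had 197, 600 and 980 CPM in the same order, Gbp2 24.1, 145 and 214 CPM, and Cd40 16.8, 56.1 and 226 CPM. Irf1, a factor of interferon signalling, had 149, 262 and 435 CPM. Ly6a, one of the sort genes and itself inducible by interferon, had 211, 421 and 525 CPM. Irf8 had 1640, 1833 and 1580 CPM, Xcr1 269, 371 and 286 CPM, and Ciita 494, 599 and 462 CPM, with no order. Some class II genes were ordered with Cxcl9: Cd74 had 15750, 17580 and 20810 CPM (rho 0.34) and H2-Ab1 6615, 7198 and 8028 CPM (rho 0.23). H2-Eb1 had a rho of 0.31 and H2-Aa one of 0.25. Other class II genes did not follow it: the rho was 0.083 for H2-DMa, 0.023 for H2-DMb1 and -0.00042 for H2-DMb2. It was -0.024 for H2-Ob and -0.044 for H2-Oa. Cd74 also had a rho of -0.42 with the total UMIs of the cell. Mki67 had 204, 241 and 67.7 CPM. Ifit1, a gene of type I interferon responses, stayed at or under 4.75 CPM, and Isg15 had 39.9, 75.2 and 93.9 CPM. Compared with the other cells, the interferon response list as a whole was not high: 4 of 26 genes were at a ratio of at least 2 and 7 at 0.5 or less, with a median log2 ratio of 0.14. For the 207, 6 of 27 were at 2 or more and 9 at 0.5 or less.

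**Figure D5:**
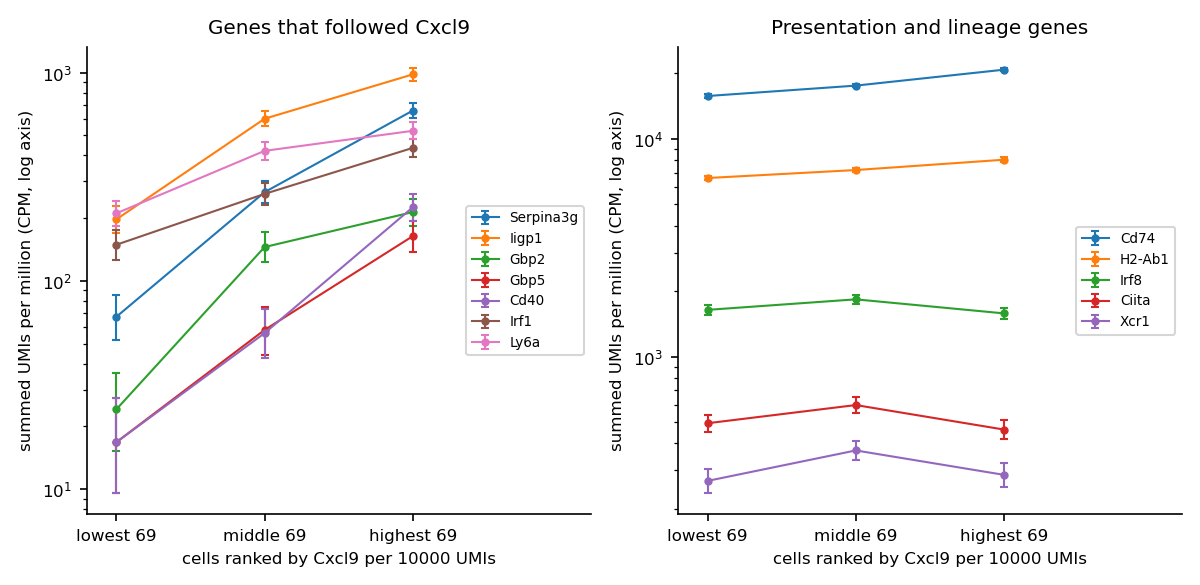
Points give summed CPM with exact 95% intervals, on a log axis, in the 69 cells with the least, the middle and the most Cxcl9 per 10000 UMIs among the 207. Gbp2, Iigp1, Cd40 and Serpina3g increase with Cxcl9, whereas Irf8, Xcr1 and Ciita show no such order.

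The same rule found 2 of 2722 kept cells of the LT-HSC library (0.0735%, 0.00890 to 0.265%), against 263 of 6648 in the ST-HSC library. The first of the 2 had 16456 UMIs with 2 UMIs of Plbd1, 2 of Naaa, 4 of Clec9a, 2 of Irf8 and 10 of Cst3, and 17 stem-gene UMIs. The second had 10535 UMIs with 15 UMIs of Plbd1, 8 of Naaa, 3 of Clec9a, 193 of Cst3, 346 of Cd74 and 0 stem-gene UMIs, beside 1 Irf8 UMI. Neither had an Xcr1 UMI. Over the whole LT-HSC library, Xcr1 had 0.0155 CPM, Clec9a 0.464 CPM and Irf8 5.35 CPM. The gates differ in CD48 and Flk2, the protein encoded by Flt3, and with 1 library each the gate and the library cannot be told apart.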

How the data were processed

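The submitters made 1 count matrix per library, and the deposited values are whole UMI counts per gene and cell barcode, per the file headers. Cell Ranger 7.2 and mm10 are named in the submitters' processing notes, while the header of the deposited count matrix names release 7.1.0; filters before deposit are not given in the sources used here. The deposited matrices hold 7586 barcodes (ST-HSC) and 2938 (LT-HSC), of which 6648 and 2722 were kept here. The UMIs of 263 Plbd1/Naaa cells (4548154 in all) and 6385 other cells (107235026) were summed per gene and scaled to CPM, without further normalization. Ratios have exact conditional binomial intervals, levels exact Poisson intervals and shares Clopper-Pearson intervals, all at 95% and for counting error only. Genes with a mean of at least 5 CPM over both groups were compared, and a ratio of at least 2 or at most 0.5 was counted; a gene at 0 was set to 3 counts per group. No comparison has a replicate, so none has a p-value. Shares and cycling were read after thinning each cell to 5000 UMIs. Doublets were kept and scored with Scrublet in scanpy 1.11.5; the rest used numpy 2.4.6, scipy 1.17.1, pandas 2.3.3 and edgeR 4.0.16 (TMM factors for an alternative). The calculation was tested on simulated data.

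The cell rule, the 23 gene lists and the markers were chosen with earlier results of these data known. Named genes are the genes of the rule and the label, the 12 highest and 12 lowest ratios over the other cells by the interval bound nearest 1 (at least 20 CPM in either group), up to 4 genes of each list with the largest ratio, 5 in each direction against each other kind of cell, and a fixed set. Genes named outside that rule were chosen after their values were seen. The splits by stem-cell RNA, by Irf8 and by Cxcl9 were also chosen after seeing the data. Promoters are RefSeq windows with those of chromosome 18 left out, and were found for 104 of the 134 named genes. Of 32285 gene IDs, 32235 matched the GENCODE M21 annotation, which gave coordinates.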

Additional observations from a re-analysis of the deposited data

How the results depend on the processing

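The number of cells passing the rule lay between 207 and 267 under all alternatives: 266 with 3 UMIs of the pair, 253 with 8, 220 without cells of high doublet score, 207 without cells of more than 10 stem-gene UMIs and 252 without cells of 0 or 1 Irf8 UMI; the last pair were chosen after seeing the data. Scaling moved the number of lower genes. The median log2 ratio of all genes compared was -0.30 with total UMIs, -0.015 with TMM and 0.019 with the median of ratios, so ratios are best read against it; the share of higher genes among those past either limit was 33.9%, 52.7% and 55.1%. The number of genes at 0.5 or less, 1684 in the values reported, was 1042 with TMM, 987 with the median of ratios, 2551 without cells of more than 10 stem-gene UMIs, 10479 with no filter on expression and 718 with a mean of 20 CPM. The number at a ratio of at least 2, 865, was 2134 with no filter and within 1.5 times of 865 otherwise. Of the named genes past a limit, TMM lost 9 of 113 and the median of ratios 10 of 113; the other alternatives lost 0 to 4. S100a8 alone changed sign, to a log2 ratio of 0.27, when the cells above the granule limit were left out of the other cells (the cause was not tested). No paired analysis was possible because each gate is 1 library. Depth limits genes of a few UMIs per cell, such as Cd8a, Tlr11 and Slamf1.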
